A study of Mus musculus with 18 samples.

Results

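The genes described here lie on mouse chromosome 17 and start between 20 and 30 Mb on GRCm39. They were chosen by position in the deposited count table, with at least 10 counts in at least 3 of the 18 libraries. The interval holds 265 rows, 207 of them reach that minimum, and 6 of these were left out by name, which leaves 201 genes of the 21254 in the table. The interval itself was chosen because genes in it differed between Ezr-KOm and WT macrophages, so the values of that comparison are given below as a description and without a test. The expression of the same genes across 3 macrophage populations of WT mice was not used in the choice and is tested.

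The libraries are bulk RNA-seq of macrophages sorted from mouse lungs 24 h after nebulization of lipopolysaccharide (LPS) of Pseudomonas aeruginosa, a bacterial cell wall product that activates macrophages, given as 12.5 mg in 5 ml PBS over 15 min. WT mice carried unfloxed ezrin alleles and Cx3cr1-Cre (Ez+/+ × Cx3cr1-Cre+), and Ezr-KOm mice carried floxed ezrin alleles and Cx3cr1-Cre (Ez fl/fl × Cx3cr1-Cre+), both on a B6 background. Cre recombinase was therefore present in both genotypes, driven by the promoter of the fractalkine receptor gene, which is active in monocytes and macrophages but also at a low level in some other immune cells. From each genotype, 3 populations of CD45+CD11b+ cells were sorted: MHC-II-Ly6C+ monocyte-derived macrophages (moMs), MHC-II+Ly6C+ transitional interstitial macrophages (trIMs, the tnsIMs of the study) and MHC-II+Ly6C- mature interstitial macrophages (matIMs), with 3 libraries in each of the 6 groups. The study's gates took these cells from the CD11c- fraction after granulocytes were set aside, and assigned alveolar macrophages and dendritic cells to the CD11c+ fraction.

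Library totals were between 16512783 and 48460995 counts. Levels are CPM, the counts scaled by library size, after TMM normalization, so that a CPM value compares libraries for 1 gene and does not compare genes of different length. Ezr, which lies at 7005440 to 7050183 on the same chromosome, was lower in the Ezr-KOm than in the WT libraries of each population, with no overlap (497 to 593 against 160 to 282 CPM in moMs, 515 to 679 against 126 to 234 CPM in trIMs, and 611 to 741 against 93.9 to 167 CPM in matIMs). The MHC class II gene H2-Ab1 was lowest in moMs and Ly6c2 was lowest in matIMs, as the sorting gates define them. Markers of monocytes and macrophages summed to 30610 to 75572 CPM in every library. Other marker lists were also detected and differed between populations. Epithelial markers summed to 87 to 210 CPM in moMs, 1768 to 4229 CPM in trIMs and 349 to 595 CPM in matIMs. Dendritic cell markers summed to 57 to 72.1, 155 to 308 and 2606 to 3676 CPM in the same order. No gene of these lists was at 0 in all libraries.

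This stretch of chromosome 17 is dense in genes. It holds clusters of KRAB zinc finger genes, which encode DNA-binding repressors that act mainly on transposable elements, and a cluster of trypsin-like serine protease genes. Between them lie genes of general upkeep, for RNA splicing, ribosomes, mitochondria and lipid metabolism, and genes of stress and inflammatory signalling such as the MAP kinase gene Mapk14 and the phosphatase gene Dusp1, which shortens MAP kinase signals after LPS. Of the 201 genes, 167 were protein coding, 22 were long non-coding RNA (lncRNA) genes and 9 were processed pseudogenes, 2 of them transcribed. The rest were 2 genes still to be experimentally tested and 1 small nuclear RNA gene.

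Promoter windows, from 250 bases before to 50 bases after the annotated start, are shown for 3 genes whose difference between the genotypes had the same sign in all 3 populations. Gm50022, an lncRNA gene, and Pim1, a kinase gene, were higher in Ezr-KOm libraries. Decr2, a gene of fatty acid oxidation, was lower. Capitals mark matches, on either strand, to GGGCGG (the GC box). The window of Gm50022 was read from the GRCm39 genome at the start given in the deposited table, and those of Decr2 and Pim1 are RefSeq promoter windows of a GRCm38.p6 table whose letters were found once on chromosome 17 of GRCm39.
Gm50022, chr17:24998427-24998726, plus strand: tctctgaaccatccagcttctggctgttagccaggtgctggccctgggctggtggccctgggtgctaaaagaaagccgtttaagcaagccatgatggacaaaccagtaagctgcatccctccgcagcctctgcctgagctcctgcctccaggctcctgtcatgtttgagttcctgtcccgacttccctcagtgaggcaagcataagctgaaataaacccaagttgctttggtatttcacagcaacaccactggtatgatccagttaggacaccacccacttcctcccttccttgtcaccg
Pim1, chr17:29709509-29709808, plus strand: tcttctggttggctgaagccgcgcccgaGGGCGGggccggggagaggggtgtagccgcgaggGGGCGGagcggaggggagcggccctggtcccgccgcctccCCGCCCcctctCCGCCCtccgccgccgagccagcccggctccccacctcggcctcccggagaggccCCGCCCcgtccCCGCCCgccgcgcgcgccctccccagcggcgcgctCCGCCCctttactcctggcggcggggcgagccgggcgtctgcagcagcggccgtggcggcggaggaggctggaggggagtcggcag
Decr2, chr17:26309089-26309388, minus strand: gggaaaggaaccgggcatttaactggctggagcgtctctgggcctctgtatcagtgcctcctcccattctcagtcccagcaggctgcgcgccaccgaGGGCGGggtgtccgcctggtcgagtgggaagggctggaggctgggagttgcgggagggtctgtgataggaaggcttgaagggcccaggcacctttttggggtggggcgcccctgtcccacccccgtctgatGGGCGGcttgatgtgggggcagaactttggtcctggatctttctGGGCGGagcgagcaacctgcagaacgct

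The window of Gm50022 held none of the 5 motifs searched, each on both strands. These were TATAAA (the TATA box), CCAAT (the box bound by NF-Y), GGGCGG (the GC box), CCGGAAG (an ETS factor site) and TGACTCA (an AP-1 site). The window of Pim1 held 7 matches to GGGCGG and that of Decr2 held 3, and neither held any of the other 4. A further RefSeq window of Pim1, at chr17:29711809-29712108, held none of the 5 motifs. Of the 201 genes, 155 matched the RefSeq table, with 209 windows. GGGCGG was in 63.2% of these 209 windows and in 35.7% of all 32851 windows of the table, and CCGGAAG was in 15.8% against 8.86%. The share with TATAAA was 5.26% against 13.6%, that with CCAAT was 41.1% against 37.4%, and that with TGACTCA was 3.83% against 5.2%. The median window of the interval had 60% G or C and 20 CG pairs, against 52.7% and 7 in the whole table. The whole table includes genes of every tissue, whereas the interval genes had to reach a count minimum in these macrophages, so the 2 sets differ in more than position.

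Between Ezr-KOm and WT libraries, 20 of the 198 tested interval genes passed the study's rule in moMs (8 higher and 12 lower in Ezr-KOm), 20 in trIMs (10 higher and 10 lower) and 21 in matIMs (10 higher and 11 lower). The rule is an absolute log2 fold change above 0.75 with an unadjusted p under 0.05 by edgeR, and over all 15811 genes tested it was met by 2.51% in moMs (1.55% higher and 0.961% lower), 1.83% in trIMs (1.08% and 0.759%) and 2.4% in matIMs (1.41% and 0.987%). It was met in at least 1 population by 34 interval genes (5.4% of all genes) and with 1 sign in all 3 populations by 11 (0.386% of all genes), 6 of them higher (0.202%) and 5 lower (0.183%). In 6 interval genes every Ezr-KOm library was above every WT library of its population (0.272% of all genes), and in 10 every one was below (0.304%). The remaining 3 genes, Gm50433, Zfp13 and Gm49802, had too few counts to be tested. These counts were part of how the interval was chosen and nothing is read from them.

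The median log2 fold change over the interval genes was -0.03 in moMs, -0.05 in trIMs and -0.06 in matIMs, against 0.00 over all genes in each. The median size of the change, without its sign, was 0.21, 0.26 and 0.25, against 0.15, 0.16 and 0.16. By position, the median size in moMs was highest among the 11 tested genes between 23 and 24 Mb (0.55) and the 13 between 22 and 23 Mb (0.43), and between 0.16 and 0.23 in the other stretches of 1 Mb. The 11 genes with 1 sign lay at 21 to 30 Mb, and the stretches from 25 to 26 Mb and from 27 to 28 Mb held none of them. On the rest of the chromosome no gene was left out by name. The count there was 8 of 45 tested genes in the 10 Mb that hold Ezr and 3 of 48 between 10 and 20 Mb. It was 1 of 208 between 30 and 40 Mb, 1 of 89 between 40 and 50 Mb and 0 beyond. With the genes left out by name included, the interval itself had 13 of 204. Over all genes tested the share was 0.386%. The 10 Mb that hold Ezr include Ezr itself, the gene targeted in Ezr-KOm, at -1.20 in moMs, -1.62 in trIMs and -2.29 in matIMs.

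**Figure D1:**
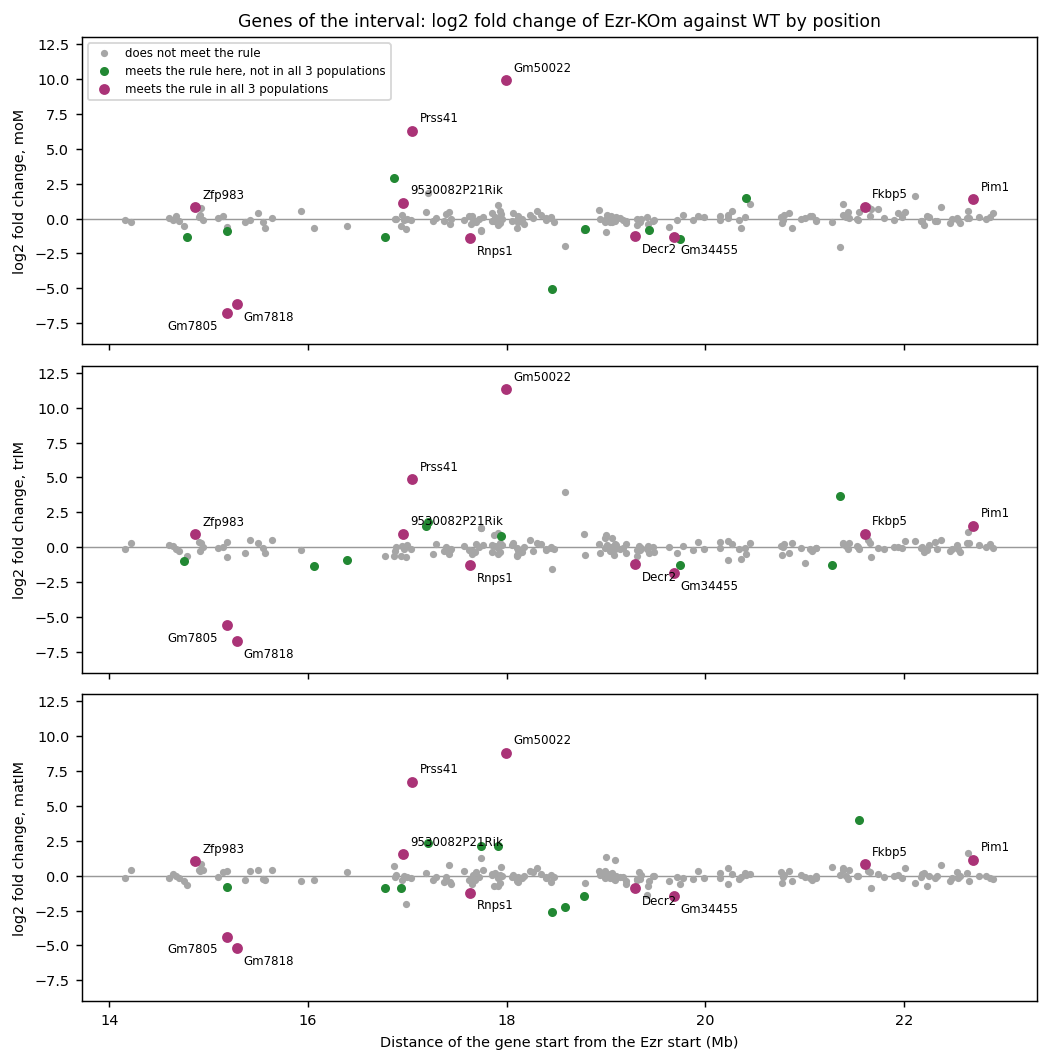
Log2 fold change of Ezr-KOm against WT (y axis) for each tested interval gene by its distance in Mb from the start of Ezr (x axis), with 1 panel per population. Coloured points met the study's rule in that population. The remaining points did not, and ranged from -2.06 to 1.82 in moMs, -1.54 to 3.93 in trIMs and -2.05 to 1.65 in matIMs.

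Of the 11 genes, 4 were at or near 0 counts in 1 genotype. Gm50022 (ENSMUSG00000117379, 24998677 to 25000958, plus strand, lncRNA) had the widest difference. Its counts in moMs were 1, 2 and 0 in WT and 1111, 1099 and 1201 in Ezr-KOm. In trIMs the WT counts were 0, 0 and 0 against 277, 694 and 289, and in matIMs 0, 0 and 1 against 158, 234 and 276. Every Ezr-KOm library was above every WT library. The ratio of summed counts, scaled for library size, was 1065 in moMs (95% counting interval 364.2 to 5169) and 601.8 in matIMs (107.6 to 23804), and in trIMs the gene was at least 86.9-fold higher, the bound taken at 3 counts in each WT library. Among the Ezr-KOm libraries the level itself differed by population, with 42.4 to 52.9 CPM in moMs, 11.5 to 13.9 CPM in trIMs and 5.67 to 11.6 CPM in matIMs.

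Prss41 (ENSMUSG00000024114, 24055759 to 24063146, minus strand), a membrane-anchored trypsin-like serine protease gene, was absent or nearly so in WT. Its WT counts were 0, 0 and 0 in moMs, 0, 0 and 1 in trIMs and 0, 0 and 0 in matIMs. The Ezr-KOm counts were 1, 25 and 3, then 10, 33 and 16, then 22, 12 and 9. The groups did not overlap in any population, but the moM difference rested on few reads outside 1 library. In moMs the Ezr-KOm mean was 2.76-fold the floor of 3 counts per library. The counts of 1 and 3 did not exceed that floor, so no bound is read there. The gene was at least 4.23-fold higher in matIMs, and the ratio in trIMs was 39.4 (6.80 to 1581).

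In the opposite direction, 2 pseudogenes were nearly absent from Ezr-KOm libraries. Gm7805 (ENSMUSG00000086004, 22183117 to 22183564, minus strand, processed pseudogene) had WT counts of 53, 44 and 35 in moMs, 38, 15 and 33 in trIMs and 28, 31 and 22 in matIMs. Its Ezr-KOm counts were 1, 0 and 0, then 0, 0 and 2, then 1, 2 and 1, and the groups were far apart in every population. The ratio was 141-fold lower in moMs (24.9 to 5606), 64.4-fold lower in trIMs (17.3 to 540) and 22.5-fold lower in matIMs (8.45 to 84.5). Gm7818 (ENSMUSG00000117234, 22286245 to 22288869, minus strand) had WT counts of 5, 11 and 7, then 9, 6 and 20, then 12, 21 and 13, and 1 count in all 9 Ezr-KOm libraries, in matIM replicate 2. In moMs the gene was thus lower by at least 2.69-fold and in trIMs by at least 4.94-fold, and in matIMs the ratio was 51.1 (8.72 to 2060). Both pseudogenes lie inside Zfp943, on its opposite strand, and which strand was counted is not given in the sources used here, so their reads and those of Zfp943 cannot be told apart. Zfp943 was itself lower in Ezr-KOm, by a log2 fold change of -0.89 in moMs, -0.71 in trIMs and -0.81 in matIMs.

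**Figure D2:**
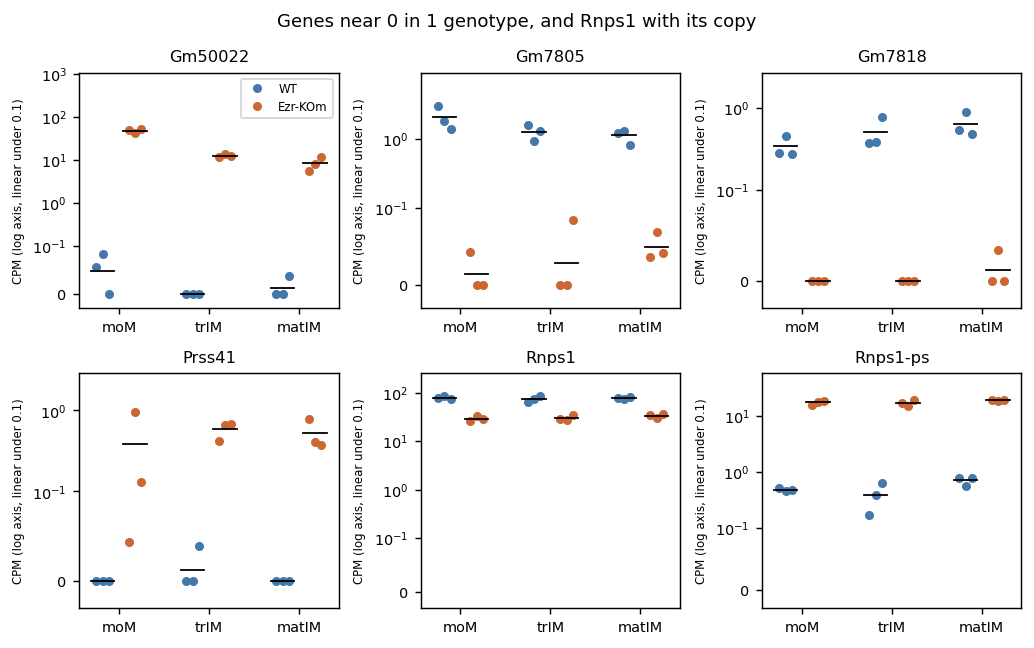
Level in each library (y axis, CPM, on an axis that is linear near 0 and logarithmic above) of Gm50022, Gm7805, Gm7818, Prss41, Rnps1 and its chromosome 6 copy Rnps1-ps by population (x axis), with WT in blue and Ezr-KOm in orange. Points are libraries and black lines are means of 3. Gm50022, Prss41 and Rnps1-ps are lower in the WT libraries, and Gm7805, Gm7818 and Rnps1 are lower in those of Ezr-KOm.

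Rnps1 (ENSMUSG00000034681, 24633539 to 24644875, plus strand) encodes an RNA-binding protein that is deposited on spliced mRNA next to the exon junction complex and takes part in splicing and mRNA quality control. It was at 76.8, 83.8 and 73.7 CPM in WT moMs and 26.2, 33.1 and 28.3 CPM in Ezr-KOm moMs. In trIMs it was at 62.8, 73.8 and 83.9 CPM against 28.7, 27.3 and 35.1 CPM, and in matIMs at 75.6, 75.6 and 82.6 CPM against 34.1, 29.96 and 36.8 CPM. No Ezr-KOm library reached the lowest WT library. The log2 fold change was -1.42 (SE 0.15) in moMs, -1.28 (SE 0.14) in trIMs and -1.21 (SE 0.14) in matIMs.

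A processed copy of Rnps1 without introns, Rnps1-ps (ENSMUSG00000096403), lies on chromosome 6 at 7982541 to 7983383. The copy has 843 bases and aligns without gaps to the coding sequence of Rnps1 from base 73 to base 915, so that it lacks the first 24 codons. The identity is 99.4%, with 5 substitutions, which are C243A, C332T, T561C, T582C and C756T (the base in Rnps1, its position from the first coding base, then the base in the copy). The longest Rnps1 transcript has 3030 bases, so the copy matches only part of it. The windows that hold 4 of the substitutions are shown because, within the aligned stretch, reads outside such positions fit both genes. Capitals mark the substituted bases.
Rnps1, coding bases 231 to 344: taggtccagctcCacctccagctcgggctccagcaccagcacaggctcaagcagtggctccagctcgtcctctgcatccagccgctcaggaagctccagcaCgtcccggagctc
Rnps1-ps, the same stretch: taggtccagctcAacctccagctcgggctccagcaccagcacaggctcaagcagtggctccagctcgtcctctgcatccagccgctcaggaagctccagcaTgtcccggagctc
Rnps1, coding bases 549 to 594: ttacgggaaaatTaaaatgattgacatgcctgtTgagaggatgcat
Rnps1-ps, the same stretch: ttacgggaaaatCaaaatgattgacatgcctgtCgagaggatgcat

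Reads assigned to the copy moved opposite to those of Rnps1. Rnps1-ps was at 0.167 to 0.798 CPM in the 9 WT libraries and at 15.4 to 19.8 CPM in the 9 Ezr-KOm libraries. Its share of the reads of both genes was 0.265% to 1.04% in WT and 35.0% to 40.3% in Ezr-KOm. The sum of both genes was 78.6 ± 5.17 CPM (SD, n = 3) in WT moMs and 47.0 ± 4.61 in Ezr-KOm moMs, 73.9 ± 10.8 against 47.9 ± 6.19 in trIMs, and 78.6 ± 4.09 against 52.9 ± 4.03 in matIMs. The sum in Ezr-KOm was thus 0.599, 0.648 and 0.673 of that in WT, where Rnps1 alone was 0.374, 0.413 and 0.431. The paper names the GeneCounts mode of STAR for the counts. Reads that fit both genes were not recounted here. The sum is therefore of assigned counts only and is not a corrected level, and the level of either gene is uncertain.

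Decr2 (ENSMUSG00000036775, 26300182 to 26309311, minus strand) encodes the peroxisomal 2,4-dienoyl-CoA reductase, an auxiliary enzyme in the breakdown of polyunsaturated fatty acids. Its level was 13.9, 15.0 and 17.2 CPM in WT moMs and 6.22, 8.02 and 5.11 CPM in Ezr-KOm moMs. The trIM libraries were at 18.1, 20.9 and 17.2 CPM against 9.52, 7.80 and 6.95 CPM, and the matIM libraries at 24.4, 25.5 and 23.9 CPM against 11.7, 13.5 and 14.3 CPM. The genotypes did not overlap in any population, and in both genotypes the matIM libraries were the highest. The log2 fold change was -1.25, -1.21 and -0.90 (SE 0.18 in each).

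Pim1 (ENSMUSG00000024014, 29709727 to 29715086, plus strand), a serine/threonine kinase gene induced by cytokines through STAT factors, was the most abundant of the 11 in CPM. The WT moM libraries were at 392, 278 and 246 CPM and those of Ezr-KOm at 1146, 408 and 811 CPM. In trIMs the values were 334, 196 and 224 CPM against 1067, 470 and 667 CPM, and in matIMs 487, 262 and 221 CPM against 946, 521 and 662 CPM. Every Ezr-KOm library exceeded every WT library of its population, and replicate 1 was the highest library of each of the 6 groups. Log2 fold changes were 1.37 (SE 0.38), 1.55 (SE 0.38) and 1.13 (SE 0.37).

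Fkbp5 (ENSMUSG00000024222, 28618068 to 28736501, minus strand) encodes a co-chaperone that restrains the glucocorticoid receptor and is itself a glucocorticoid target. It was at 40.4, 61.2 and 59.4 CPM in WT moMs and 46.4, 125 and 122 CPM in Ezr-KOm moMs. The trIM values were 27.9, 43.8 and 42.2 CPM against 35.0, 108 and 80.3 CPM, and the matIM values 57.4, 49.5 and 53.7 CPM against 68.6, 133 and 79.95 CPM. The groups overlapped in moMs and trIMs, where Ezr-KOm replicate 1 lay within the WT range, and not in matIMs. The log2 fold changes of 0.86, 0.97 and 0.81 (SE 0.37) were the least stable of the protein-coding genes among the 11. Without Ezr-KOm replicate 2 they were 0.65, 0.60 and 0.47. The rule was also missed in moMs without Ezr-KOm replicate 3 (0.67) or WT replicate 1 (0.69), in trIMs without WT replicate 1 (0.81), and in matIMs without WT replicate 1 (0.88), 2 (0.76) or 3 (0.80). With the replicate number as a block the value in matIMs was 0.71, so that the rule was then met in moMs and trIMs but not in matIMs.

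Zfp983 (ENSMUSG00000035868, 21869545 to 21883882, plus strand), a zinc finger gene, was at 3.07, 2.98 and 4.13 CPM in WT moMs against 5.52, 5.48 and 6.74 CPM in Ezr-KOm moMs. It was at 1.67, 2.28 and 3.10 against 3.66, 3.23 and 6.44 CPM in trIMs, and at 3.81, 4.87 and 4.73 against 8.78, 11.4 and 7.38 CPM in matIMs. All Ezr-KOm libraries were above all WT libraries of the same population. On the log2 scale the difference was 0.80 (SE 0.29), 0.91 (SE 0.29) and 1.04 (SE 0.28). The rule was missed in moMs without Ezr-KOm replicate 3 (0.69), WT replicate 1 (0.73) or WT replicate 2 (0.71), and in trIMs without Ezr-KOm replicate 3 (0.59) or WT replicate 1 (0.73).

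The last pair of the 11 are lncRNA genes. 9530082P21Rik (ENSMUSG00000097006, 23962208 to 23973039, plus strand) was at 0.968, 0.870 and 1.02 CPM in WT moMs against 2.57, 1.54 and 2.16 CPM in Ezr-KOm moMs. In trIMs it was at 2.17, 1.90 and 3.02 against 3.24, 5.21 and 5.51 CPM, and in matIMs at 0.887, 0.769 and 0.447 against 1.54, 1.72 and 2.81 CPM. It did not overlap between genotypes in any population and was highest in trIMs in both. Its log2 fold changes were 1.13 (SE 0.35), 0.97 (SE 0.33) and 1.53 (SE 0.36), and the gene overlaps Flywch1 on the other strand.

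Gm34455 (ENSMUSG00000118107, 26686534 to 26722174, minus strand) was at 9.22, 2.82 and 2.17 CPM in WT moMs against 2.22, 2.31 and 1.06 CPM in Ezr-KOm moMs. The trIM values were 6.42, 4.25 and 2.82 against 1.91, 0.978 and 0.848 CPM, and the matIM values 5.90, 2.44 and 1.49 against 0.753, 0.929 and 1.84 CPM. The genotypes overlapped in moMs and matIMs, and WT replicate 1 was the highest library in each population. Its log2 fold changes were -1.33 (SE 0.58), -1.86 (SE 0.59) and -1.48 (SE 0.59). Without WT replicate 1 of moMs it was -0.42 there, and without WT replicate 1 of matIMs it was -0.73 there, and the rule was not met in either case. It was also missed in moMs without Ezr-KOm replicate 3 (-1.05) and in matIMs without Ezr-KOm replicate 1 (-1.25) or 2 (-1.34).

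**Figure D3:**
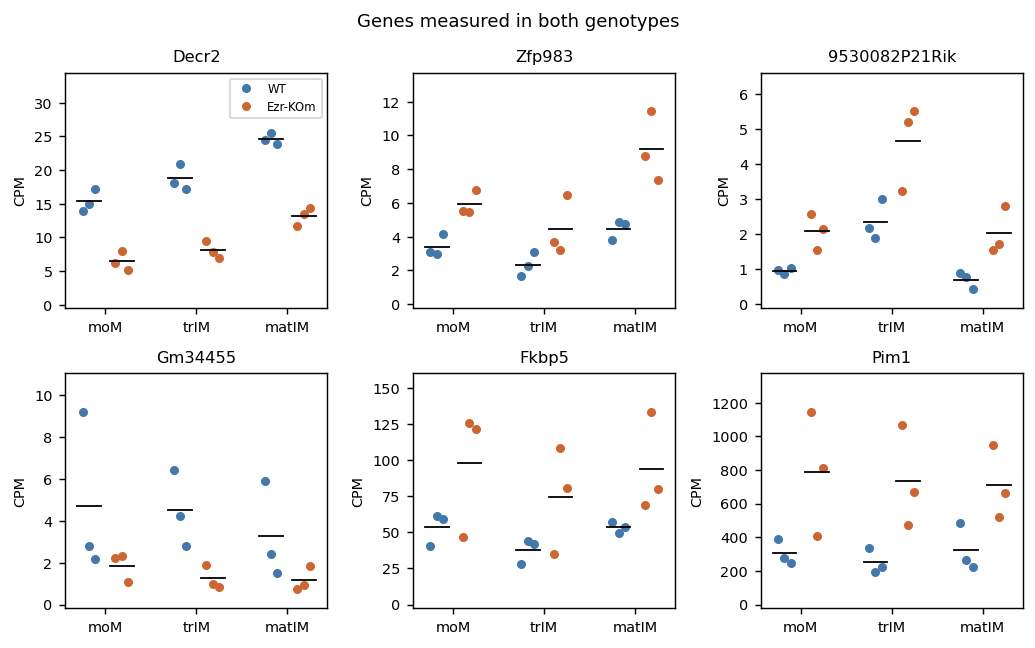
Level in each library (y axis, CPM) of Decr2, Zfp983, 9530082P21Rik, Gm34455, Fkbp5 and Pim1 by population (x axis), with WT in blue and Ezr-KOm in orange. Points are libraries and black lines are means of 3. Decr2 separates the genotypes widely, whereas the Fkbp5 and Gm34455 groups share part of their range.

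Grouped by role, 18 of 19 listed zinc finger genes were tested, with a median log2 fold change of -0.19 in moMs, -0.22 in trIMs and -0.14 in matIMs. Those lower by the rule were Zfp948 (-1.30), Zfp943 (-0.89) and Zfp213 (-1.31) in moMs, Zfp52 (-0.97), Zfp945 (-1.34) and Zfp40 (-0.96) in trIMs, and Zfp943 (-0.81) and Zfp213 (-0.91) in matIMs. Zfp948 missed the rule in trIMs (-0.66) and matIMs (-0.70), and Zfp213 missed it in trIMs (-0.66). Neither gene overlapped between genotypes in any population. In moMs and matIMs, Zfp52 was at -0.53 and -0.39, Zfp945 at -0.71 and -0.34, and Zfp40 at -0.55 and 0.25. No gene of the list, which does not hold Zfp983, was higher by the rule. Over all genes the share higher was 1.55% in moMs, 1.08% in trIMs and 1.41% in matIMs, so nothing is read from this absence. The 3 most abundant of the list, Zfp598, Zfp53 and Zfp942, differed by -0.29 to 0.26.

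Genes of RNA processing and the ribosome, 20 in all, had medians of -0.04, -0.10 and -0.11. Apart from Rnps1, the rule was met by Rpl3l in trIMs (0.79), a paralog of a ribosomal protein gene that is typical of muscle. Rpl3l was at 0.35 in moMs and 0.62 in matIMs. The splicing factor genes Srsf3 and Srrm2 were at 240 to 322 CPM and 148 to 173 CPM in the group means, with log2 fold changes of -0.06 to 0.16. Rps2, a protein of the small ribosomal subunit, was at 197 ± 17.6, 221 ± 48.1 and 253 ± 36.3 CPM in WT moMs, trIMs and matIMs and at 159 ± 29.9, 172 ± 43.2 and 175 ± 40.9 CPM in Ezr-KOm (SD, n = 3), with log2 fold changes of -0.31, -0.36 and -0.53. The SDs of the genotypes meet in moMs and trIMs, and the rule was not met in any population.

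Among 21 genes of mitochondria and lipid metabolism, Decr2 met the rule in all 3 populations and Lmf1, a factor for the maturation of lipases, in moMs (-0.75). Lmf1 missed the rule in trIMs (-0.59) and matIMs (-0.55). Its Ezr-KOm libraries were all below its WT libraries in each of the 3 populations. Clcn7, a lysosomal chloride transporter gene, was at 149 to 229 CPM in the group means, with log2 fold changes of 0.24, 0.19 and 0.13, and Nubp2 and Mtch1 differed by -0.17 to -0.06. Of 9 genes of nutrient sensing and mTORC1, Fkbp5 alone met the rule, and Traf7 and Pdpk1, the kinase that activates Akt, differed by -0.10 to 0.20. None of the 14 listed genes of the cell cycle and DNA repair met it in any population. Over all genes 5.4% met it in at least 1 population, so nothing is read from the absence in so short a list. Axin1 and Ciao3, among the most abundant of the 14, differed by -0.23 to 0.06. Pkmyt1, a kinase gene that restrains entry into mitosis, is outside the list and was named after its values were seen. It met the rule in matIMs, at 14.1, 11.5 and 14.6 CPM in WT libraries against 6.49, 9.74 and 6.08 CPM in those of Ezr-KOm, without overlap and with a log2 fold change of -0.85. In trIMs it missed the rule (-0.67) but did not overlap, at 4.30, 3.49 and 3.72 CPM against 2.535, 2.77 and 1.91 CPM. In moMs the genotypes overlapped (-0.55).

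Among 25 kinase and inflammatory signalling genes, Pim1 met the rule in each population, and in matIMs so did Noxo1, an organizer of an NADPH oxidase (2.10), and Tead3, a transcription factor of the Hippo pathway (4.02). Noxo1 missed the rule in moMs (0.99) and trIMs (0.98). WT matIMs had 0 counts of Tead3 in all 3 libraries and Ezr-KOm matIMs had 2, 1 and 3, so no fold is read from it. Mapk14, which encodes the stress kinase p38alpha, was at 192 to 275 CPM in the group means with differences of -0.12, -0.02 and -0.05, and Fgd2 differed by -0.30, -0.36 and -0.04. Dusp1, named here after its values were seen because it was the most abundant interval gene in CPM, had means of 9978 ± 299 CPM (SD, n = 3) over the WT and 9063 ± 986 CPM over the Ezr-KOm moM libraries, with log2 fold changes of -0.14, -0.39 and -0.09 and the rule not met.

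All 3 serine protease genes had positive values. Besides Prss41, Prss22 had log2 fold changes of 1.82, 1.77 and 2.37 at no more than 1.197 CPM in any library, and met the rule in trIMs and matIMs. Prss30 was at 1.02, 1.57 and 1.22 CPM in WT moMs against 2.57, 1.504 and 1.15 CPM in Ezr-KOm moMs, which overlap. In trIMs its libraries were at 1.00, 0.761 and 0.705 CPM against 2.95, 1.60 and 2.501 CPM, without overlap, with a log2 fold change of 1.49. In matIMs they overlapped again. Markers of mast cells and basophils, which also express serine proteases of this chromosome region, summed to 64.9 to 102 CPM in WT and 75.6 to 104 CPM in Ezr-KOm moMs, 158 to 245 against 159 to 251 CPM in trIMs, and 105 to 142 against 120 to 123 CPM in matIMs. Their ranges overlapped between genotypes in each population.

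At the ends of the interval, the first gene was Ppp2r1a, a scaffold subunit of protein phosphatase 2A that starts at 21165573, with log2 fold changes of -0.09, -0.11 and -0.20. The last was Ccdc167, at 29906331, with 0.42, -0.08 and -0.24. The nearest tested genes outside were Vmn2r97, a vomeronasal receptor gene at 19134562, with -3.01, -2.80 and -2.15, and Mdga1, at 30046923, with 0.33, -0.11 and -0.09. The edges of the interval are round numbers and were not set at a change in the values. Just inside the count minimum, with 10 counts in 3 libraries, were Gm50433, Zfp13, Arhgdig, Gm49802, Bnip5 and Gm23887, and just outside, with 2 libraries, were 10 genes that include Abca17, Kifc5b and Syngr3.

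In WT mice, the interval genes were compared between the populations, a comparison that the choice of the interval did not use. By edgeR's quasi-likelihood test at a Benjamini-Hochberg adjusted p under 0.05, 30 of 198 differed between trIMs and moMs (18 higher and 12 lower in trIMs), 26 between matIMs and trIMs (17 and 9) and 41 between matIMs and moMs (27 and 14). Over all genes tested the shares were 21.6% (13% higher and 8.61% lower), 18.5% (8.32% and 10.2%) and 24.8% (13.4% and 11.4%), so these counts are a share of the interval genes near or below the background. The median log2 fold change over the interval was 0.08, 0.10 and 0.11, against 0.01, 0.04 and 0.01 over all genes. Without moM WT replicate 1 or replicate 3 the first count was 19 or 17, and without trIM WT replicate 1 the second was 17.

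From moMs to trIMs, Slc9a3r2, Tmem204, Npw and Paqr4 rose and Pi16 and Fam234a fell. Slc9a3r2 encodes NHERF2, a PDZ scaffold whose tail binds ezrin and its relatives. It was at 18.3, 23.6 and 16.5 CPM in WT moMs, 45.9, 110 and 83.3 CPM in trIMs and 10.3, 11.9 and 10.8 CPM in matIMs. The populations did not overlap, with trIMs highest and matIMs lowest. The log2 fold change was 2.03 (SE 0.26, adjusted p = 2.34e-05 by edgeR) from moMs to trIMs and -2.86 (SE 0.27, adjusted p = 5.79e-07) from trIMs to matIMs.

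Tmem204, a gene for a membrane protein of cell junctions that is known from endothelium, followed the same order. Its WT libraries were at 7.002, 8.04 and 10.2 CPM in moMs, 21.6, 48.1 and 42.4 CPM in trIMs and 2.93, 3.50 and 4.73 CPM in matIMs, without overlap. It rose by 2.15 (SE 0.29, edgeR adjusted p = 4.46e-05) and then fell by 3.32 (SE 0.31, adjusted p = 5.79e-07), and it was lower in matIMs than in moMs by a log2 fold change of -1.17 (SE 0.30, adjusted p = 0.00671). Npw, which encodes the precursor of neuropeptide W, was scarce throughout, with 0.0394 to 0.228 CPM in moMs, 0.960 to 1.80 CPM in trIMs and 0.128 to 0.399 CPM in matIMs. Its rise was 3.72 (SE 0.75, adjusted p = 0.00153) and its fall to matIMs -2.14 (SE 0.64, adjusted p = 0.0240), and the latter did not pass without matIM WT replicate 2 (-1.82) or 3 (-2.28) or trIM WT replicate 3 (-1.85). In the same libraries the summed epithelial markers were highest in trIMs by the ranges given above, and endothelial markers summed to 93.6 to 132 CPM in moMs, 222 to 453 CPM in trIMs and 72.8 to 98.6 CPM in matIMs. Their part in the values of Slc9a3r2, Tmem204 and Npw was not tested. In bulk libraries, fewer cells of a type and less RNA per cell cannot be told apart.

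Pi16, a gene for a secreted peptidase inhibitor, fell with maturation. It was at 34.4, 36.3 and 55.4 CPM in WT moMs, 4.46, 3.42 and 9.44 CPM in trIMs and 2.97, 2.01 and 4.14 CPM in matIMs, so that the moM libraries stood clear of the other 6. The log2 fold change was -2.85 (SE 0.35, edgeR adjusted p = 1.86e-05) in trIMs and -3.78 (SE 0.37, adjusted p = 4.28e-07) in matIMs, both against moMs. Fam234a was at 145, 189 and 191 CPM in moMs, 67.0, 60.7 and 72.8 CPM in trIMs and 65.2, 70.4 and 81.5 CPM in matIMs, where the last 2 populations overlap. It fell by 1.39 (SE 0.16, adjusted p = 9.54e-06) and by 1.28 (SE 0.16, adjusted p = 8.49e-06) against moMs. The difference of Fam234a between genotypes was -0.80, -0.43 and -0.38, and it met the rule in moMs only, which the interaction test below does not call different.

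Others that fell from moMs to trIMs were Ift140, of intraflagellar transport (-0.92, adjusted p = 0.00645), the kinase gene Stk38 (-0.86, adjusted p = 0.00096) and Zfp944 (-0.86, adjusted p = 0.00688). Wdr90 fell by 1.15 (edgeR adjusted p = 0.0369) with a call that was lost without moM WT replicate 1 (-0.97) or 3 (-1.02) or trIM WT replicate 1 (-1.01) or 2 (-0.98). Paqr4, a progestin and adipoQ receptor family gene, rose stepwise, from 2.05, 2.44 and 2.21 CPM in moMs to 5.21, 7.80 and 5.96 CPM in trIMs and 10.2, 9.82 and 10.7 CPM in matIMs. Its log2 fold change from moMs to trIMs was 1.49 (SE 0.20, edgeR adjusted p = 4.06e-05). The lncRNA gene 9530082P21Rik rose by 1.31 (SE 0.35, adjusted p = 0.0122) into trIMs and fell by 1.76 (SE 0.36, adjusted p = 0.00162) into matIMs, and Gm26724 rose by 1.40 (adjusted p = 0.0306), a call that was lost without any 1 of the 3 moM WT libraries or trIM WT replicate 1 or 2, at 1.21 to 1.46.

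From trIMs to matIMs, the 6 genes with the largest rise started below 1 CPM on average, whereas others of the 17 that rose did not, such as Ift140, from 8.24 ± 2.89 to 21.8 ± 4.85 CPM (SD, n = 3, edgeR adjusted p = 0.000178). Scube3, which encodes a secreted protein with EGF-like repeats, had counts of 1, 0 and 0 in WT trIMs and 10, 30 and 51 in WT matIMs, a ratio of 81.6 (14.3 to 3257, edgeR adjusted p = 0.00154). Cacna1h, a T-type calcium channel gene, had 0 counts in all trIM libraries and 23, 11 and 22 in matIMs, and was at least 5.33-fold higher (adjusted p = 0.00657). Rab26, a small GTPase gene of vesicle traffic, had 0, 7 and 6 counts in trIMs and 18, 47 and 32 in matIMs. All 3 separated the populations without overlap, although at counts this low a ratio has a wide interval.

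The log2 fold change of Rab26 was 2.65 (SE 0.80, edgeR adjusted p = 0.0262), and that of the lncRNA gene Cerox1 was 3.37 (SE 0.74, adjusted p = 0.00272). Pacsin1, of membrane curvature in endocytosis, rose by 2.04 (SE 0.62, adjusted p = 0.0247), but these calls were lost, for Rab26, without matIM WT replicate 2 (2.20) or trIM WT replicate 1 (2.00) or 3 (2.71), and for Pacsin1 without replicate 1 or 3 of matIM WT or 1 or 2 of trIM WT (1.74 to 1.98). Prss30 was at 1.00, 0.761 and 0.705 CPM in WT trIMs and 4.34, 4.96 and 5.85 CPM in matIMs. It rose by 2.61 (SE 0.35, adjusted p = 2.36e-05). Tead3 had 15, 4 and 16 counts in trIMs and 0 in all WT matIM libraries, and was at least 4.04-fold lower (adjusted p = 0.00222). Rab44, a large Rab GTPase gene of immune cells, fell by 1.43 (SE 0.36, adjusted p = 0.00818) in this step.

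Against moMs, matIMs had less Rab44, with 7.63, 11.4 and 9.17 CPM against 36.4, 51.5 and 38.3 CPM in WT moMs. The trIM libraries, at 19.7 to 28.9 CPM, lay between them without overlap. The fall from moMs was 2.17 on the log2 scale (SE 0.37, edgeR adjusted p = 0.000221). Msrb1, a selenoprotein that reduces oxidized methionine, fell by 1.15 (SE 0.20, adjusted p = 0.000286) and Abca3, the lipid transporter of lamellar bodies, by 0.97 (SE 0.25, adjusted p = 0.00623). Alveolar macrophage markers summed to 4938 to 8395 CPM in moMs, 915 to 2019 CPM in trIMs and 380 to 666 CPM in matIMs. The gates, however, assign alveolar macrophages to the CD11c+ fraction. The list includes Marco, which the paper reports as higher in matIMs than in the other populations, so single markers need not follow the sum. Which of the 6 genes of the list carries the sum is not shown, so it is not read as a content of alveolar macrophages. The part of alveolar macrophages in these falls was not tested.

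Higher in matIMs than in moMs, from few reads, were Cacna1h (ratio 51.6, 8.89 to 2075, edgeR adjusted p = 0.00948), Rab26 (ratio 44.7, 12.1 to 374, adjusted p = 0.001) and Scube3 (log2 3.95, SE 0.97, adjusted p = 0.00494). So were Bicdl2, of dynein transport (log2 3.73, SE 0.92, adjusted p = 0.00513), and 9630028I04Rik (log2 3.08, SE 0.91, adjusted p = 0.0173). The call of Cpne5 (ratio 13.4, 3.38 to 116, edgeR adjusted p = 0.0471) was lost in 12 of 22 alternatives (log2 2.90 to 3.95), among them each moM WT library left out, that of 9630028I04Rik without matIM WT replicate 2 or moM WT replicate 1 (2.59) or 3 (2.73), and that of Cacna1h without moM WT replicate 3 (4.73). Dendritic cell markers were highest in matIMs by the ranges given above, and B and plasma cell markers summed to 78.1 to 167 CPM in moMs, 132 to 248 CPM in trIMs and 506 to 865 CPM in matIMs. Their part in the genes higher in matIMs was not tested. Dusp1 was lower in WT matIMs, at 5886, 6937 and 6496 CPM against 10219, 10071 and 9644 CPM in moMs and 7457, 13418 and 7943 CPM in trIMs, by a log2 fold change of -0.63 (SE 0.18, adjusted p = 0.0130) against moMs.

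**Figure D4:**
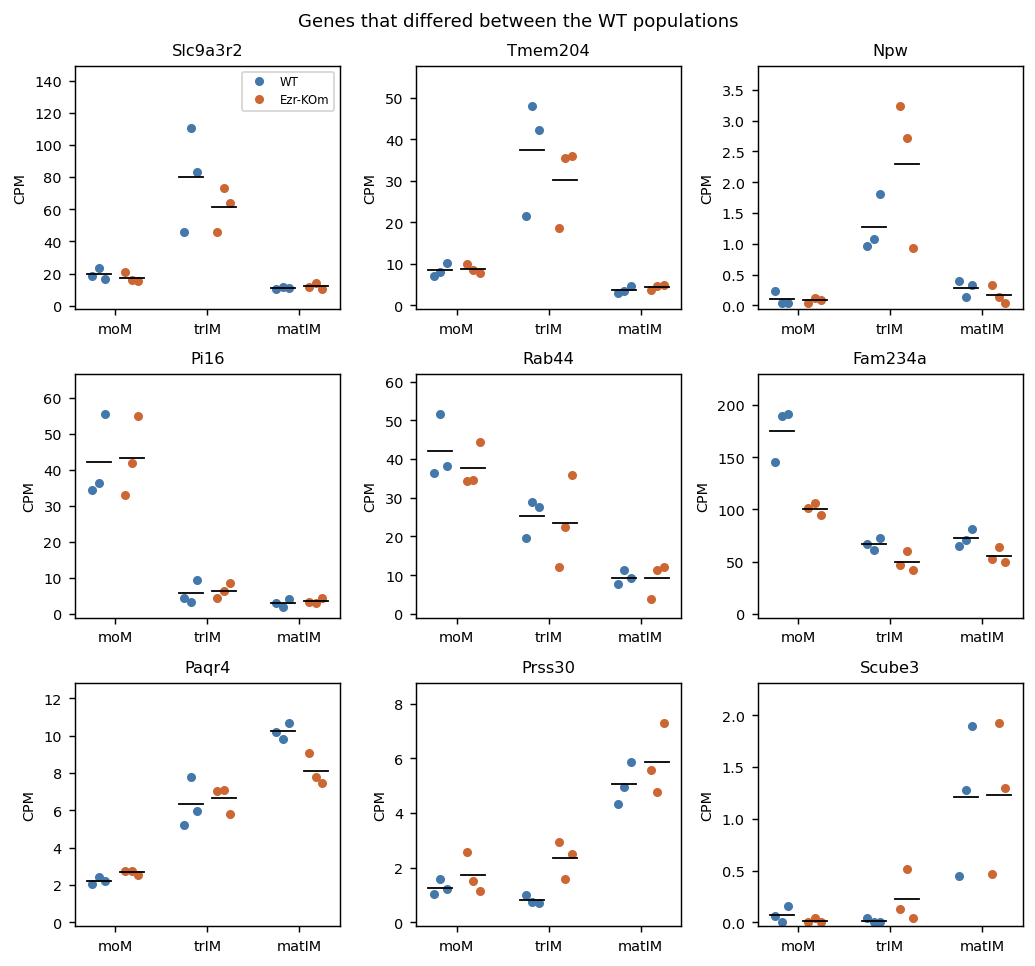
Level in each library (y axis, CPM) of Slc9a3r2, Tmem204, Npw, Pi16, Rab44, Fam234a, Paqr4, Prss30 and Scube3 by population (x axis), with WT in blue and Ezr-KOm in orange. Points are libraries and black lines are means of 3. Slc9a3r2, Tmem204 and Npw peak in trIMs, Pi16 and Rab44 are highest in moMs, and the Ezr-KOm means of these 5 genes follow the same order of populations.

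By role, the kinase and inflammatory signalling list, which is the longest, held the most calls between WT populations. A longer list can hold more calls, so nothing is read from this rank. Of its 25 genes, 3 were higher and 4 lower in trIMs against moMs, 2 and 3 in matIMs against trIMs, and 7 and 5 in matIMs against moMs. The shares called over all genes were 21.6% (13% higher and 8.61% lower), 18.5% (8.32% and 10.2%) and 24.8% (13.4% and 11.4%). Of the 18 tested zinc finger genes, Zfp523 rose and Zfp944 fell from moMs to trIMs, and Zfp51 was higher and Zfp944 lower in matIMs than in moMs. Tbl3 and Ppil1 of the RNA processing list rose from moMs to trIMs, and Srpk1, a kinase of splicing factors, and Ppil1 were higher in matIMs than in moMs. Abca3, Hagh and Lmf1 of the mitochondrial and lipid list were lower and Decr2 was higher in matIMs than in moMs. Chtf18, a clamp loader gene of DNA replication, was higher in trIMs than in moMs and higher again in matIMs.

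The Ezr-KOm libraries are other animals under the same sort and serve as a second set for these population differences. They share 1 model and its estimate of the spread with the WT libraries, so the sets are not fully independent. There, 23 of 198 interval genes differed between trIMs and moMs (14.3% of all genes tested), 23 between matIMs and trIMs (18.2%) and 34 between matIMs and moMs (23.3%) by edgeR at an adjusted p under 0.05. Called in both genotypes with the same sign were 15 genes, which is 50% of the WT calls and 65.2% of the Ezr-KOm calls, then 16 (61.5% and 69.6%) and 27 (65.9% and 79.4%). Of the WT calls, 29 of 30, 26 of 26 and 41 of 41 had the same sign in Ezr-KOm, the exception being Gm26724 at -0.58. The overlap and the shared signs were not computed over all genes, so nothing particular to the interval is read from them. Pi16 was lower than in moMs by log2 fold changes of -2.76 in trIMs and -3.59 in matIMs there. Slc9a3r2 changed by 1.81 and then -2.34, Tmem204 by 1.78 and then -2.78, and Npw by 4.71 and then -3.72.

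Whether the genotype difference itself varied between populations was tested as an interaction. By edgeR, no interval gene passed an adjusted p of 0.05 for trIMs against moMs, matIMs against trIMs or matIMs against moMs. Neither did any by DESeq2 or with the replicate number as a block. Over all 15811 genes tested by edgeR the number that passed was also 0 in each, so the absence is not particular to the interval. At an unadjusted p under 0.05 there were 7, 8 and 4 genes by edgeR (1.47%, 1.16% and 1.7% of all genes). DESeq2 gave 7, 7 and 3 and the block gave 9, 9 and 7, without a share over all genes to set beside them. Rule calls made in 1 population and not in another, such as Rab26 (2.11) and Cerox1 (-1.47) in matIMs or Baiap3 in moMs (-5.06) and matIMs (-2.61), are therefore not shown to differ between populations.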

How the data were processed

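RNA was amplified with a low-input, full-length kit, and the authors checked reads with FastQC, aligned them with STAR 2.7.9a to GRCm39 and deposited unnormalized counts per gene of a Gencode annotation. Which strand column was used is not given in the sources used here. The deposited counts, 16512783 to 48460995 per library, went into edgeR 4.0.16 (R 4.3.3) after the study's methods, with TMM normalization, filterByExpr on the 6 groups (smallest count 10) and 1 quasi-likelihood model of all 18 libraries. All p-values were adjusted by Benjamini-Hochberg over the 15811 genes tested, except in the study's rule, and the code was checked on simulated counts. The study states 3 mice per genotype, but not which mouse each library came from. Same-numbered WT and Ezr-KOm libraries deviated together (correlations of 0.102 to 0.316, against at most 0.0508 for different numbers). This is a hint of pairing from the data, and no source says that a number pairs the genotypes. The main model did not use the numbers. Alternatives were DESeq2 1.42.0, upper-quartile scaling, no filter, at least 10 counts in every library, a block for the replicate number, and leaving out each library.

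The interval, its genes and the lists were chosen with earlier results of these data known. Named are genes that met the study's rule in all 3 populations, the 3 most abundant of each role list, the 6 largest changes in each direction of each WT comparison, and the genes at the ends of the interval and at the count minimum. Any other gene was named after its values were seen. Of the genes under this rule, 1 is not reported here. Counting intervals (95%, exact) and the floor of 3 counts per library cover counting error only. Copies were matched with BLAST 2.17.0 (identity at least 90%, cover at least 80%, E at most 1e-20). Positions are those of the deposited table. Of the 201 genes, 199 were found in a later Gencode annotation of the same build, 42 with identical bounds.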

Additional observations from a re-analysis of the deposited data

Results flagged for a closer look

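Paqr4 was flagged because its genotype differences ran in opposite directions. Every Ezr-KOm library was above every WT library in moMs (2.74, 2.78 and 2.51 against 2.05, 2.44 and 2.21 CPM), with a log2 fold change of 0.26, and every one was below in matIMs (9.07, 7.78 and 7.46 against 10.2, 9.82 and 10.7 CPM), with a log2 fold change of -0.34. The difference between these effects was -0.60 (SE 0.28), with an adjusted p of 1 by edgeR and by DESeq2, so it did not pass the correction. No interval gene passed it, and by edgeR no gene of the whole table did.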

How the results depend on the processing

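The values refitted were the genotype differences of the 11 genes and the WT population differences of the genes with the largest changes. None of these turned its direction. The genotype values of the other named genes were not refitted one by one. With at least 10 counts in every library, the genes that met the rule for Ezr-KOm against WT were 12 in moMs, 12 in trIMs, 10 in matIMs and 7 in all 3. That filter tests fewer genes, since it removes any with a low library. With the replicate block these counts were 20, 20, 22 and 10. Leaving out 1 library gave 18 to 22, 19 to 22, 16 to 22 and 8 to 12. DESeq2 gave 21, 20, 20 and 12, and upper-quartile scaling 19, 20, 21 and 11. For the WT populations, leaving out 1 library gave 17 to 37 genes (trIMs against moMs), 17 to 28 (matIMs against trIMs) and 30 to 42 (matIMs against moMs), DESeq2 gave 36, 29 and 46, and no filter 26, 25 and 38. A replicate block within genotype gave 41, 33 and 48, where no source says that a number marks a mouse across populations. Every library still correlated best with its own number (0.0905 to 0.397 between populations of 1 genotype, against -0.295 to 0.0316), a hint from the data and not from the design. Interactions stayed at 0 to 0 genes with any library left out and at 0 with the replicate block. Of the refitted values, 19 of the genotype calls and 34 of the population calls were lost when 1 library was left out, against 575 and 614 kept. Under the other settings 1 of each was lost. Each value was refitted without each of the 18 libraries, also those outside its own comparison. The kept counts therefore overstate how stable the calls are. Upper-quartile scaling shifted the median of all genes by at most 0.09, and that of WT matIMs against trIMs from 0.04 to -0.01. Genes with under 60 counts per library, Gm7805, Gm7818, Prss41, Scube3 and Cacna1h among them, are limited by depth.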
